A study of Homo sapiens with 4 samples.

Results

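The replicative helicase is built from the MCM2 to MCM7 and GINS1 to GINS4 subunits, and all 10 genes, chosen by name, were present among the 23605 gene symbols of each expression table. RNA had been sequenced from LCC9 cells treated for 24 h with A7 (2 libraries) or with the vehicle DMSO (2 libraries). LCC9 is a human breast cancer line that the labels call tamoxifen-resistant and positive for wild-type estrogen receptor alpha, and both groups were grown without phenol red in 5% charcoal-stripped serum, which holds little estrogen. A7 is a compound that the series describes as a mimetic of the tumour suppressor BRCA1, for which the labels and the title give differing catalogue numbers, so that only the code name is used, and its dose is not given in the sources used here. The question put to the 10 genes was whether their transcript levels differed between A7 and vehicle, and whether the subunits of each complex had equal transcript levels. Whether the libraries of each group stem from separate cultures is not stated in the labels, and p-values therefore cover only the variation between libraries, which may be technical.

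MCM2 to MCM7 form the ring that encircles DNA. The origin recognition complex, CDC6 and CDT1 load the ring on origins in G1 as an inactive pair, and the kinases of S phase then recruit CDC45 and the GINS complex, which turns it into the helicase that unwinds DNA at the fork. Each MCM subunit and each GINS subunit is present in equal copy number in that assembly. MCM2 holds a histone-binding tail, MCM4, MCM6 and MCM7 form a core with helicase activity of its own, MCM3 binds the loaders on the origin, and the MCM2 and MCM5 interface is the gate through which DNA enters. GINS1 (also called PSF1), GINS2 (PSF2), GINS3 (PSF3) and GINS4 (SLD5) bridge the ring and CDC45. Transcription of these genes is known to be driven by E2F factors as cells pass from G1 into S phase.

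RefSeq promoter windows of build GRCh38.p14, from 250 bases before to 50 bases after an annotated start, were available for 7 of the 10 genes (MCM2, MCM3, MCM6, MCM7, GINS1, GINS2 and GINS3), and MCM7 had 3 windows. An E2F motif, taken as TTTCCCGC, TTTCGCGC, TTTGCCGC or TTTGGCGC on either strand, was present in at least 1 window of all 7 genes and in 7 of their 9 windows. Among all 35116 RefSeq promoter windows of the same length 3.31% held it, and among the 6466 tested genes with a window 7.36% did. A CCAAT box on either strand was found for 5 of the 7 genes (MCM3, MCM6, MCM7, GINS1 and GINS2), against 34.6% of all windows, and the palindromic consensus estrogen response element was found for 0 of the 7, against 0.057% of all windows. A match is a string of letters and not a measured site, and no match says only that these letters are absent from these windows. The 250 bases before the start are given for GINS2, which had the largest difference between A7 and vehicle among the 10 genes, for MCM7, the most abundant, and for MCM3 and MCM6, whose levels in both groups overlapped, so that the shared letters can be compared. They run 5′ to 3′ on the strand of the gene, and capitals mark E2F motifs and CCAAT boxes on either strand.

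GINS2 (chr16:85688955-85689204, minus strand): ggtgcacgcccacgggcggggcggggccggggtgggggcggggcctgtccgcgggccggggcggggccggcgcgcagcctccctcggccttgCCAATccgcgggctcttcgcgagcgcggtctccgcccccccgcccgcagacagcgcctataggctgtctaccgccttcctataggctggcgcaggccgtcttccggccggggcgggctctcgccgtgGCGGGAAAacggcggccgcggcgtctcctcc
MCM7 (chr7:100101398-100101647, minus strand): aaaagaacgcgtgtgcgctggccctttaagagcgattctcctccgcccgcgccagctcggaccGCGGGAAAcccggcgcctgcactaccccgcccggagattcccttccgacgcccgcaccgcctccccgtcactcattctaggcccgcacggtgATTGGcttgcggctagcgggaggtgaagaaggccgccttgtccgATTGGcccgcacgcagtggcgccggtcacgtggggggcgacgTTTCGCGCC
MCM3 (chr6:52284743-52284992, minus strand): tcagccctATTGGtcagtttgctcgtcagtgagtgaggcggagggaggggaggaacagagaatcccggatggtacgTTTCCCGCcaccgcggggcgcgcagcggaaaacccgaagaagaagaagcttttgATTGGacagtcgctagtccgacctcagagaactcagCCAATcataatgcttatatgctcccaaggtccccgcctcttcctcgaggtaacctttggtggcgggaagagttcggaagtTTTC
MCM6 (chr2:135876444-135876693, minus strand): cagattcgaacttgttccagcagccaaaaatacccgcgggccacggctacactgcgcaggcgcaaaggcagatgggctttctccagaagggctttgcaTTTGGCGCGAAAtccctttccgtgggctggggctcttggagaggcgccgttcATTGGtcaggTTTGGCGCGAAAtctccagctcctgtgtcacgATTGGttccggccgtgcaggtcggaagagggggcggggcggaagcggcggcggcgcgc

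In MCM6 the capitals form a pair of 12-base runs in which TTTGGCGC on the gene's strand overlaps TTTCGCGC on the other, beginning 152 and 90 bases before the start, and there are 2 CCAAT boxes. GINS2 has a single E2F motif, TTTCCCGC on the other strand, 31 bases before the start. MCM7 has the same motif on the other strand 187 bases before the start and TTTCGCGC 9 bases before it, where the last capitals begin a CCAAT box that runs past the start, and its other 2 windows hold no E2F motif. In MCM3 the last capitals begin a TTTCGCGC that also runs past the start. In MCM2 and GINS1 the E2F motif lay after the start, and in GINS3 it began 5 bases before it. The motif was thus present in genes whose levels were lower with A7 and in genes whose levels overlapped, and over all tested genes with a window the median log2 difference was -0.0029 with the motif and -0.0029 without it.

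Transcript levels are given as FPKM, which are fragments of a gene per kilobase of transcript, scaled to the number of mapped fragments, and were then divided by a median-ratio factor per library (scaled FPKM). The estimated depth was low and unequal, roughly 4300000 and 3200000 fragments in the A7 libraries and 2300000 in each vehicle library. All 10 genes passed the minimum mean of 1 FPKM and were among the 8952 genes tested. All 10 luminal markers were expressed, with 6 lower and 4 higher on average with A7 (median log2 difference -0.17). Of 7 basal markers 3, the keratins KRT5, KRT14 and KRT17, were listed at 0 in every library, as were 5 of 7 immune markers. The basal list summed to 13.4 and 12.6 scaled FPKM with A7 and 15.2 and 17.0 with vehicle, most of it ACTA2, which averaged 11.2 with A7 and 14.1 with vehicle. Of 7 fibroblast markers 6 were listed above 0 in A7 replicate 1 and 3 in A7 replicate 2, against 1 in each vehicle library, and their summed level was 11.1 and 0.963 scaled FPKM with A7 and 0.416 and 0.421 with vehicle, with the matrix proteoglycan DCN at 8.40 and 0.230 with A7 and 0 in both vehicle libraries. Their part in the results below was not tested, and values without A7 replicate 1 are given for GINS2, MCM7 and MCM4.

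Subunits of the MCM2-7 ring did not have equal transcript levels. MCM7 had 349 and 413 scaled FPKM in the A7 libraries and 441 and 506 in the vehicle libraries. It stood above 96.6% of all tested genes and made up 78.0% to 85.3% of the summed level of the ring's subunits. MCM3 was next with 58.0 and 55.1 in the A7 libraries and 55.5 and 55.6 in the vehicle libraries. MCM4 had 22.9 and 19.6 with A7 and 18.9 and 16.7 with vehicle, and MCM6 had 10.3 and 8.27 with A7 and 9.40 and 7.81 with vehicle. At the low end, MCM5 had 3.53 and 3.18 with A7 and 4.50 and 4.32 with vehicle, and MCM2 had 3.59 and 3.02 with A7 and 4.29 and 2.95 with vehicle. These values give the order MCM7, MCM3, MCM4, MCM6, then MCM5 and MCM2, and the ranges over the 4 libraries of neighbours in that order did not overlap except those of MCM5 and MCM2. Averaged over the libraries the highest subunit exceeded the lowest 123-fold, and within single libraries the ratio was 98.8 and 137 with A7 and 103 and 172 with vehicle.

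Length and base composition can be set beside the levels. The longest annotated coding transcripts (GENCODE 29) of MCM7, MCM5 and MCM2 were 3084, 3534 and 3622 bases long with 57.6%, 56.6% and 58.1% GC, although the mean level of MCM7 was 427 scaled FPKM, that of MCM5 3.88 and that of MCM2 3.46. The highest subunits, MCM7 and MCM3, had the shortest transcripts of the ring (3084 and 3208 bases), and MCM6, next below MCM4 in level, had the lowest GC content, 43.1%. Spearman's rho between GC content and mean level was -0.20 over the 6 ring subunits, -0.006 over the 10 genes and -0.062 over 8217 tested genes. Between transcript length and mean level it was -0.49, -0.20 and -0.31 over the same sets, and the part of length in the levels was not tested. The points share their 4 libraries, and the authors' transcript lengths were not given in the sources used here, so a different choice of isoform could move a level. The cDNA was made by SMARTer PCR, and the part of amplification in the unequal levels of the 10 genes was not tested. The coding transcripts of MCM4 span 572 to 4183 bases, those of MCM2 547 to 3622, those of MCM5 551 to 3534 and those of GINS2 537 to 2673, a wider relative span than that of MCM7 (1497 to 3084).

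The 4 GINS transcripts were also unequal, over a narrower range. GINS2 had 104 and 119 scaled FPKM in the A7 libraries and 155 and 171 in the vehicle libraries. GINS1 had 67.1 and 68.9 with A7 and 76.2 and 98.3 with vehicle. Both stood far above GINS4, which had 11.5 and 9.49 with A7 and 12.3 and 14.9 with vehicle, and GINS3, which had 3.35 and 2.99 with A7 and 3.37 and 3.56 with vehicle. The order GINS2, GINS1, GINS4, GINS3 was the same in each of the 4 libraries and no neighbours overlapped in range, although the lowest GINS2 value, 104, came close to the highest GINS1 value, 98.3. The highest subunit exceeded the lowest 41.4-fold on average, and 31.0- and 39.7-fold in the A7 libraries and 46.1- and 48.1-fold in the vehicle libraries. Set beside the ring, GINS2 and GINS1 were more abundant than every MCM subunit except MCM7, and GINS3 lay at the level of MCM2 and MCM5.

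**Figure D1:**
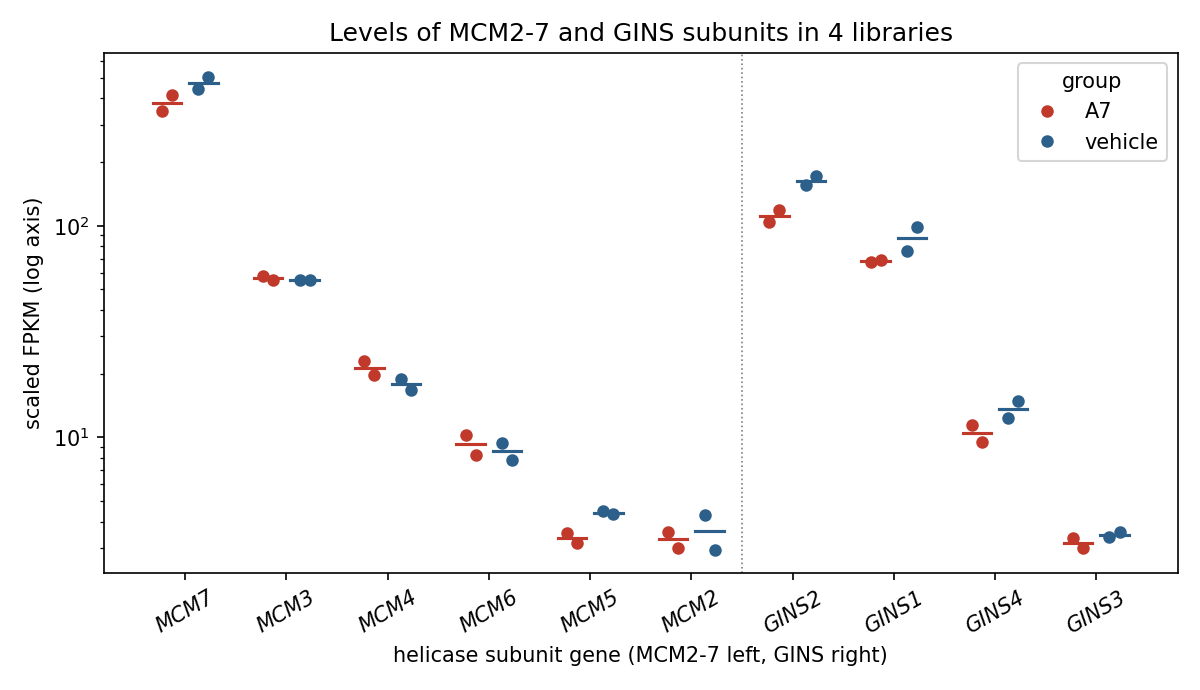
Scaled FPKM (log axis) of each subunit gene in every library, with A7 in red left of vehicle in blue; points are libraries and bars are group means. MCM7 at 349 to 506 and GINS2 at 104 to 171 lead their complexes, while MCM2, MCM5 and GINS3 lie between 2.95 and 4.50.

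With A7, 7 of the 10 genes (the 4 GINS genes, MCM2, MCM5 and MCM7) had a lower mean than with vehicle, as did 50.3% of all tested genes, and MCM3, MCM4 and MCM6 a higher one. None of the 10 genes passed the test, which was limma on log2(scaled FPKM + 1) with Benjamini-Hochberg adjustment over the 8952 tested genes, and 1 gene of the 10, GINS2, had an unadjusted p under 0.05, as did 5.76% of all tested genes (3.55% lower and 2.21% higher). At an adjusted p under 0.05 there were 0 of the 10 genes and 0.0223% of all tested genes (0.0112% lower and 0.0112% higher). In these bulk libraries, fewer cells in S phase and less RNA per cell cannot be told apart.

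GINS2, at 104 and 119 scaled FPKM with A7 and 155 and 171 with vehicle, averaged 111 ± 10.3 with A7 and 163 ± 11.3 with vehicle (SD, n = 2 each), a difference in means of -31.9%. Both A7 libraries lay below both vehicle libraries, and the gap was larger than the difference between replicates in either group. Its log2 difference was -0.55 (SE 0.14, 95% interval -0.89 to -0.21, limma unadjusted p = 0.00725, limma adjusted p = 0.773). Without A7 replicate 1, the library with the most fibroblast marker signal, it was -0.46, without each other library it lay between -0.64 and -0.48, and with FPKM rescaled to TPM it was -0.33. The value rests on an estimated 2199 fragments with A7 and 2009 with vehicle, and the ratio per depth was 0.672 with a 95% exact binomial (Clopper-Pearson) interval of 0.632 to 0.714, which covers counting error only and leaves out the spread between libraries.

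The other GINS genes had the same sign, except GINS3 after rescaling to TPM (0.07, or -0.11 relative to the median of all tested genes). GINS1 averaged 68.0 ± 1.26 with A7 and 87.2 ± 15.6 with vehicle, a log2 difference of -0.34 (SE 0.16, limma adjusted p = 0.806). The A7 libraries lay close together and below both vehicle libraries, which themselves differed 1.29-fold, and the log2 difference was -0.16 without vehicle replicate 2, -0.53 without vehicle replicate 1 and -0.12 with TPM. GINS4 averaged 10.5 ± 1.42 with A7 and 13.6 ± 1.82 with vehicle, a log2 difference of -0.34 (SE 0.18, limma adjusted p = 0.806), again without overlap. It was -0.21 without A7 replicate 2, -0.21 without vehicle replicate 2 and -0.13 with TPM. For GINS3 the groups were separated by a gap far smaller than the spread within them, since the higher A7 library had 3.35 and the lower vehicle library 3.37, and its log2 difference was -0.10 (SE 0.18, limma adjusted p = 0.933) on an estimated 54 fragments with A7 and 36 with vehicle. The median log2 difference of the 4 GINS genes was -0.34, against -0.0019 over all tested genes. Leaving out vehicle replicate 2 moved it to -0.18, and leaving out vehicle replicate 1 to -0.50.

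Within the MCM2-7 ring the signs were divided. MCM7 averaged 381 ± 45.4 scaled FPKM with A7 and 474 ± 46.2 with vehicle, without overlap, and its log2 difference was -0.32 (SE 0.15, 95% interval -0.67 to 0.04, limma unadjusted p = 0.0733, limma adjusted p = 0.806). It was -0.19 without A7 replicate 1, -0.21 without vehicle replicate 2, -0.14 after quantile normalization and -0.09 with TPM. MCM5 averaged 3.35 ± 0.249 with A7 and 4.41 ± 0.123 with vehicle, also without overlap, with a log2 difference of -0.31 (SE 0.18, limma adjusted p = 0.806) that was -0.13 with TPM. For MCM5 the estimated fragments were few, 89 with A7 and 72 with vehicle, and the ratio per depth of 0.759 had a counting interval of 0.550 to 1.05, which includes no difference.

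MCM4 went the other way. It averaged 21.2 ± 2.30 scaled FPKM with A7 and 17.8 ± 1.56 with vehicle, without overlap, and the log2 difference was 0.24 (SE 0.16, 95% interval -0.16 to 0.63, limma adjusted p = 0.814), with a ratio per depth of 1.20 and a counting interval of 1.05 to 1.37. The log2 difference was 0.13 without A7 replicate 1, 0.16 without vehicle replicate 2 and 0.45 with TPM. MCM3 was the steadiest of the 10 genes, with a coefficient of variation of 2.29% over the 4 libraries and a log2 difference of 0.02 (SE 0.13). Its 95% interval of -0.29 to 0.34 corresponds to 0.818- to 1.27-fold, so smaller changes than these are not excluded by this test. For MCM6 the log2 difference was 0.10 (SE 0.19) and for MCM2 it was -0.09 (SE 0.22), with overlapping groups in both. The vehicle libraries alone differed 1.45-fold for MCM2, which rests on an estimated 90 fragments with A7 and 60 with vehicle. The signs of MCM2, MCM3 and MCM6 turned when single libraries were left out. The median log2 difference of the 6 ring subunits was -0.03, and it moved to 0.07 without vehicle replicate 1 and to -0.12 without A7 replicate 1.

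**Figure D2:**
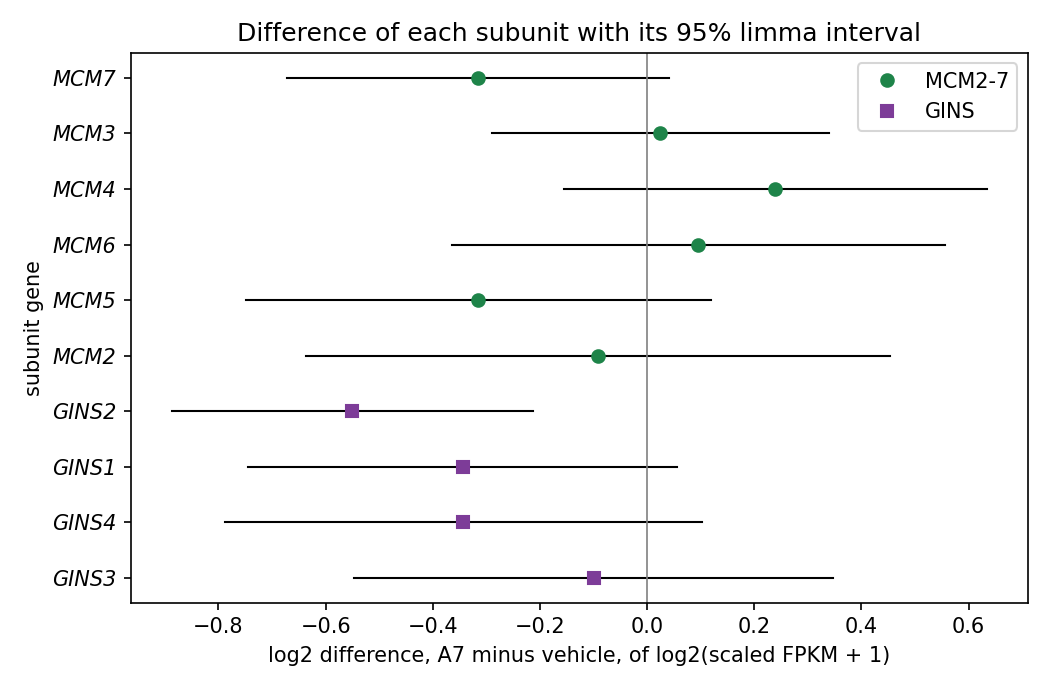
Log2 difference of each subunit gene, A7 minus vehicle, on log2(scaled FPKM + 1), with MCM2-7 genes as circles, GINS genes as squares and lines for the 95% interval from limma. GINS2 at -0.55 has the only interval that does not reach 0, and MCM4 at 0.24 is the highest.

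By the ranges alone, 6 of the 10 genes were lower with A7 without overlap of the groups (MCM5, MCM7 and all 4 GINS genes), against 18.6% of all tested genes, and 1 was higher without overlap (MCM4), against 18.3%. In either direction these were 7 of the 10 genes, against 36.9% of all tested genes. The background depended on the level of the gene. Of 717 tested genes with a mean of 100 FPKM or more, which include MCM7 and GINS2, 48.5% were lower without overlap, and their median log2 difference was -0.16. Of 2563 genes between 10 and 100 FPKM, which include MCM3, MCM4, GINS1 and GINS4, 23.7% were lower without overlap and the median was -0.05. Of 5672 genes between 1 and 10 FPKM, which include MCM2, MCM5, MCM6 and GINS3, 12.5% were lower without overlap and the median was 0.05. Abundant transcripts as a whole were thus somewhat lower with A7, MCM7 and GINS2 among them, and the part of this level-dependent shift in their differences was not tested.

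**Figure D3:**
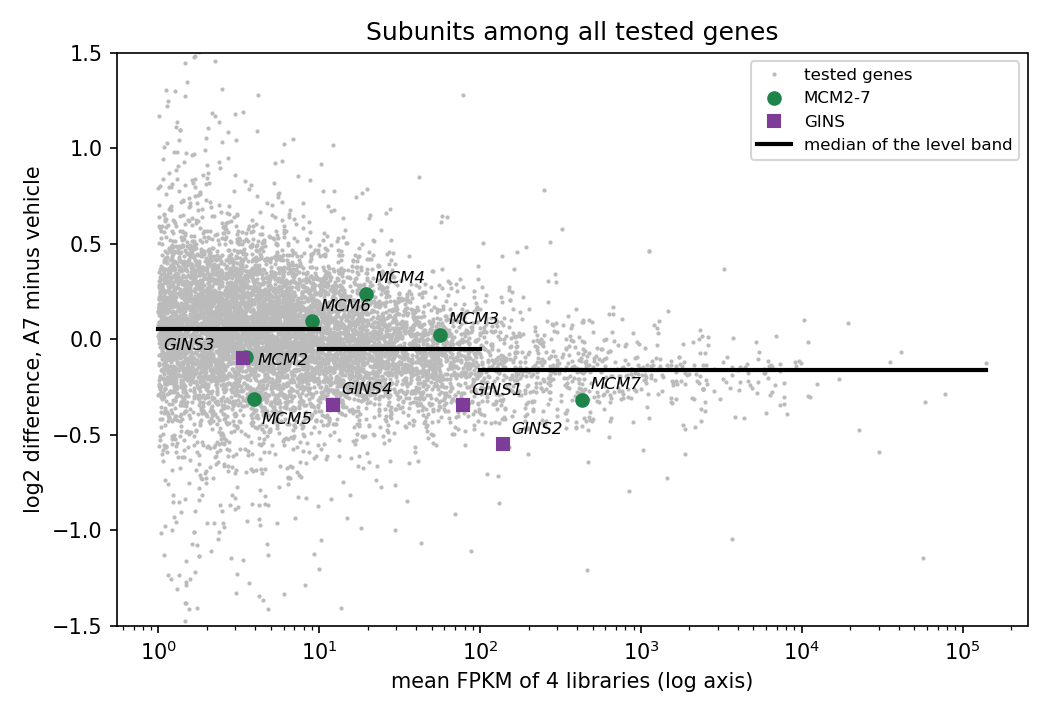
Log2 difference, A7 minus vehicle, against mean FPKM (log axis) for all 8952 tested genes in grey, with MCM2-7 genes as circles, GINS genes as squares and black lines for the median of each level band; 74 genes lie beyond the vertical axis. MCM7 and GINS2 lie in the band whose median is -0.16, and MCM3, MCM4 and MCM6 lie above the median of their band.

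The ratio of a pair of subunits within a library does not depend on a single factor that scales the whole library, although quantile normalization can change it. For MCM4 over MCM5 it was 6.48 and 6.17 with A7 and 4.20 and 3.86 with vehicle, and for MCM3 over MCM5 it was 16.4 and 17.4 with A7 and 12.3 and 12.9 with vehicle. In both cases the groups were far apart relative to the difference between replicates, but MCM5 rests on an estimated 35 to 53 fragments in each library, so counting error in these ratios is large. MCM3 over MCM4, in contrast, was 2.54 and 2.81 with A7 and 2.94 and 3.33 with vehicle, and MCM3 over MCM6 overlapped, at 5.63 and 6.67 with A7 and 5.91 and 7.11 with vehicle. Of the 15 pairs within the ring 9 had ratios without overlap of the groups, and of the 6 pairs within GINS 3 did, where 36.3% of all pairs of tested genes above 0 in every library did. The GINS2 to GINS3 ratio was 31.0 and 39.7 with A7 and 46.1 and 48.1 with vehicle, whereas GINS1 over GINS4 overlapped, at 5.84 and 7.26 with A7 and 6.20 and 6.61 with vehicle. Pairs share genes and are not independent, and with 2 libraries a group the exact permutation test cannot give a two-sided p below 0.333, so no p is given for a ratio.

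Summed over the subunits, the GINS transcripts came to 186 and 200 scaled FPKM with A7 and 247 and 288 with vehicle, without overlap, a difference in means of -27.9%. The MCM2-7 transcripts summed to 447 and 502 with A7 and 534 and 594 with vehicle, a difference in means of -15.8%. Without MCM7 the ring's sum was 98.2 and 89.2 with A7 and 92.6 and 87.4 with vehicle, and the groups overlapped. The difference in the ring's sum was thus that of MCM7.

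The factors that load and start the helicase had small differences of mixed sign, and none passed the limma test over all genes. Of 9 tested licensing genes 7 averaged lower and 2 higher with A7 (median log2 difference -0.15). ORC3, a subunit of the origin recognition complex, had 10.3 and 10.7 scaled FPKM with A7 and 12.8 and 16.6 with vehicle, whereas its partner ORC2 had 5.90 and 5.47 with A7 and 4.03 and 4.43 with vehicle. ORC5 had 28.2 and 38.9 with A7 and 39.2 and 44.5 with vehicle, and ORC6 12.9 and 13.4 with A7 and 13.2 and 16.3 with vehicle. Of the loaders, CDC6 had 10.8 and 13.7 with A7 and 14.9 and 13.9 with vehicle, just without overlap, and CDT1, at 2.02 and 1.57 with A7 and 1.42 and 2.15 with vehicle, overlapped. Of 7 tested activation genes 5 were lower and 2 higher (median -0.12). CDC45, which joins MCM2-7 and GINS in the active helicase, overlapped between groups, at 16.3 and 21.0 with A7 and 20.3 and 17.3 with vehicle. The kinase CDC7, which phosphorylates the ring, had 6.94 and 7.19 with A7 and 7.40 and 11.5 with vehicle, the activation factor MCM10 6.48 and 7.04 with A7 and 8.29 and 7.64 with vehicle, and MTBP, a partner of the origin firing factor Treslin, 2.18 and 1.65 with A7 and 2.12 and 2.38 with vehicle.

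At the fork, 18 of 26 tested genes averaged lower and 8 higher with A7 (median -0.11). Without overlap 9 were lower and 3 higher, against 18.6% and 18.3% of all tested genes. The share lower without overlap was 23.7% from 10 to 100 FPKM and 48.5% at 100 FPKM or more, and fork genes were not compared within such bands. RPA2, a subunit of the single-strand DNA binding protein, had 52.2 and 60.3 scaled FPKM with A7 and 81.1 and 78.3 with vehicle, a log2 difference of -0.50 (SE 0.14, limma unadjusted p = 0.0119, limma adjusted p = 0.806). The sliding clamp PCNA had 86.2 and 94.0 with A7 and 98.1 and 119 with vehicle, and the polymerase delta subunit POLD2 8.99 and 11.9 with A7 and 12.7 and 13.9 with vehicle. Of 6 tested genes of nucleotide supply 3 were lower and 3 higher (median -0.04). The reductase subunits RRM1 and RRM2 overlapped between groups. Of the 10 tested E2F and pocket protein genes 4 were lower and 6 higher (median 0.04). The pocket protein RBL2, which represses E2F targets in resting cells, had 7.48 and 7.01 with A7 and 3.10 and 3.60 with vehicle (log2 difference 0.92, SE 0.17, limma adjusted p = 0.491). E2F8 had 2.72 and 2.70 with A7 and 1.99 and 2.52 with vehicle, and E2F6 overlapped. Of 20 tested mitosis genes 11 were lower and 9 higher (median -0.09), with CCNB1 at 104 and 115 with A7 and 131 and 167 with vehicle, CCNA2 at 8.48 and 9.07 with A7 and 6.90 and 6.08 with vehicle, and CENPA at 5.11 and 4.00 with A7 and 3.70 and 2.62 with vehicle.

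**Figure D4:**
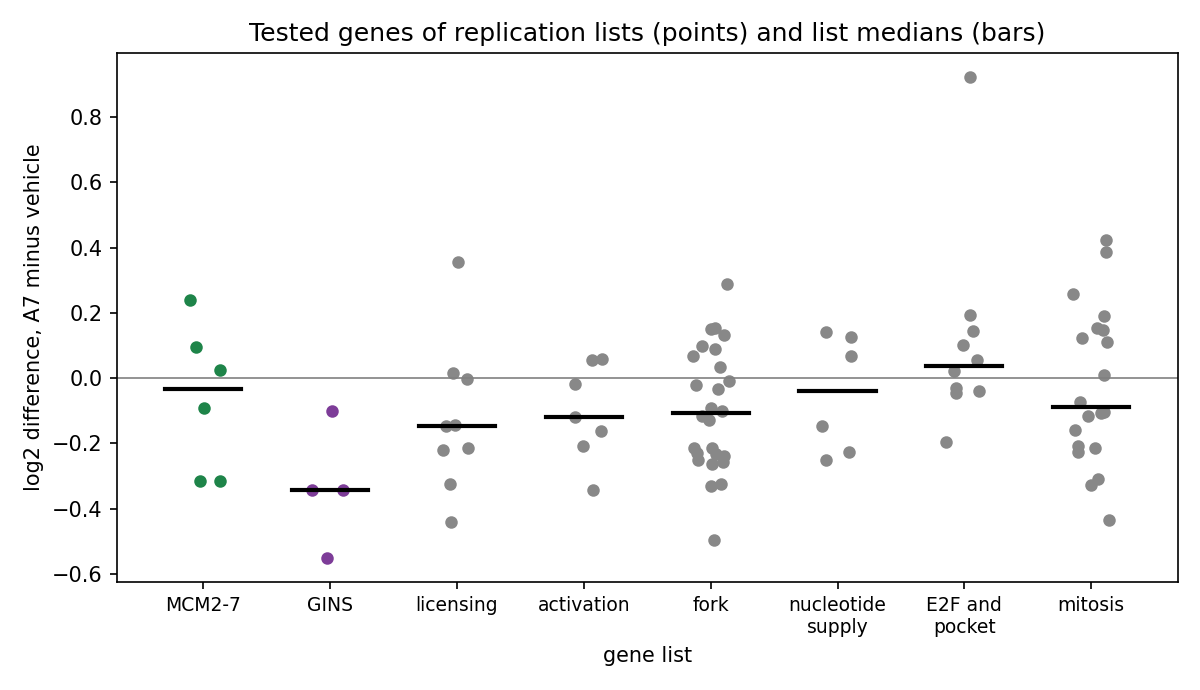
Log2 difference, A7 minus vehicle, of the tested genes (points, spread sideways for view) in the MCM2-7, GINS and other replication and cell cycle lists, with black bars for list medians. The GINS median of -0.34 is the lowest of the 8 lists shown, the MCM2-7 genes span -0.32 to 0.24, and RBL2 is the single point above 0.8.

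The paralogs outside the ring were low. MCM8 and MCM9, which form a helicase used in DNA repair, had 2.27 and 2.15 scaled FPKM with A7 and 2.48 and 2.72 with vehicle for MCM8, and 1.34 and 1.39 with A7 and 1.79 and 1.74 with vehicle for MCM9. MCMBP, a binding partner of MCM subunits outside chromatin, overlapped at 5.53 and 3.95 with A7 and 4.96 and 4.24 with vehicle. MCMDC2 and MCM3AP averaged under 1 FPKM and were not tested.

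Genes whose level across the 4 libraries followed that of MCM7 most closely, by the distance between centred log2 values among 3279 genes with a mean of 10 FPKM or more, were TIMM21, VDAC3 and TXNL1 (distances of 0.0231, 0.0245 and 0.0344). The closest to GINS2 were N6AMT2, POP5 and MIEN1 (0.0440, 0.0509 and 0.0811). VDAC3 had 89.2 and 106 scaled FPKM with A7 and 113 and 128 with vehicle, and POP5 146 and 165 with A7 and 223 and 249 with vehicle. With only 4 libraries many genes have alike patterns, and these names describe the pattern alone.

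Reads of overlapping genes can be mixed, since the protocols name no strand-marking step. In GENCODE 29 MCM7 overlaps AP4M1, MCM2 overlaps TPRA1 and GINS2 overlaps GSE1, each on the other strand. Antisense RNAs overlap more of MCM2 (AC023593.1), GINS3 (AC009118.1 and AC009118.2) and GINS4 (AC009630.1 and AC009630.2), and their levels were not analysed here. AP4M1 had 0.533 and 1.72 scaled FPKM with A7 and 1.29 and 2.57 with vehicle, far below MCM7, and GSE1 had 6.05 and 4.28 with A7 and 5.88 and 3.47 with vehicle. TPRA1 stood at 0.860 and 0.608 with A7 and at 0.954 and 0 with vehicle, a level nearer to that of MCM2 than AP4M1 was to that of MCM7. C16orf74, which lies 10 bases from GINS2 on the same strand, had 0.448 and 1.11 with A7 and 2.50 and 2.54 with vehicle, lower without overlap like GINS2 (log2 difference -1.01, SE 0.26, limma adjusted p = 0.806). COPS6, a signalosome subunit that lies 527 bases from MCM7 on the other strand, had 376 and 438 with A7 and 477 and 498 with vehicle, a level and a pattern near those of MCM7. PRKDC, on the other strand with a gap of 1 base to MCM4, had 2.61 and 2.13 with A7 and 2.16 and 2.42 with vehicle, overlapping where MCM4 did not. The microRNA genes MIR25, MIR93 and MIR106B, which lie within MCM7, were listed at 0 in all 4 libraries. Their overlaps with MCM7 span 80 to 84 bases, and a 0 for entries this short in sheared cDNA does not show absence. A blastn search found no near-identical copy (at least 95% identity over at least 50% of the transcript) of any of the 10 genes among GENCODE 29 transcripts. The matches that came nearest were antisense RNAs of the same loci, identical over 21.4% of the MCM2 transcript and 21.0% of the GINS4 transcript, and a processed pseudogene at 92.7% identity over 21.1% of the GINS2 transcript.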

How the data were processed

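RNA from 2 A7 and 2 vehicle libraries of LCC9 cells was sequenced after SMARTer PCR cDNA synthesis, shearing and adapter ligation, per the labels' protocols. The authors deposited an FPKM value per gene for each library, per the file headers. The submitters' processing notes name CASAVA 1.8.2, TopHat, Cufflinks 2.2.1 and the build GRCh37 without saying what each did. The annotation used, and how reads with several matches were treated, were not given in the sources used here. Of 23619 lines per table, 14 had a whole number in place of a symbol (at most 0.00539% of summed FPKM) and were left out.

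A count model was not applied to FPKM. Libraries were divided by their median ratio to the geometric mean library (factors 0.990 and 1.02 for A7, 1.002 and 1.01 for vehicle). The 8952 genes averaging at least 1 FPKM entered limma 3.58.1 (R 4.3.3), with a trended variance prior, as log2(scaled FPKM + 1). Tests were two-sided, differences are A7 minus vehicle, and the threshold was a Benjamini-Hochberg adjusted p of 0.05. A pseudocount of 1 understates the change of low genes. The fit had 2 residual and 3.89 prior degrees of freedom, and the procedure was tested on simulated data. The changes planted there were larger than those of the subunit genes, so it does not show whether differences of their size would be found. Relative depth was read from the commonest ratio of low FPKM values between each library and vehicle replicate 1. That ratio held 264 of 3229 genes for A7 replicate 1, 100 of 2970 for A7 replicate 2 and 644 of 2767 for vehicle replicate 2. The absolute scale was read from genes with a single GENCODE 29 transcript, a weak mode that held 95 of 1068 values. Relative depths and fragment numbers are therefore rough, and fragments of a gene also assume its longest coding transcript. Intervals on fragments cover counting error only. Copies were searched with blastn 2.17.0. Promoter sequences are from RefSeq, GRCh38.p14; the tables themselves hold no positions.

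All 10 members are named, with the 3 tested genes of smallest p in each other list (1 of them is not reported here), a few fixed partners of the helicase, markers, annotated neighbours, and the 3 genes most like MCM7 and GINS2. The members and lists were chosen with earlier results of these data known. Alternatives changed the pseudocount, the minimum FPKM, the scaling, the variance trend, the replicate block and the libraries included.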

Additional observations from a re-analysis of the deposited data

How the results depend on the processing

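None of the 10 subunit genes passed under any of the alternatives run, and in 120 of 127 combinations of gene and alternative the sign was kept. GINS2 ranged from -0.64 to -0.33 on the log2 scale and MCM7 from -0.43 to -0.09, both negative throughout, and MCM4 from 0.13 to 0.45. The sign turned with FPKM rescaled to TPM for MCM2 (0.0734) and GINS3 (0.0682), without vehicle replicate 1 for MCM2 (0.117), without A7 replicate 2 for MCM2 (0.00813), without A7 replicate 1 for MCM3 (-0.00878) and MCM6 (-0.0458), and without vehicle replicate 2 for MCM6 (-0.0189). Over the fits with 1 library left out MCM3 ranged from -0.00878 to 0.0649, MCM2 from -0.298 to 0.117 and MCM6 from -0.0458 to 0.243. With TPM the median over all tested genes was 0.17, GINS2 was -0.33 and MCM7 -0.09 (-0.50 and -0.27 relative to it), and the medians were 0.16 for MCM2-7 and -0.13 for GINS (-0.015 and -0.30 relative to it). Relative to the median over all tested genes, MCM2 was -0.10 and GINS3 -0.11 with TPM, so their signs turned only on the unadjusted scale. Leaving out 1 library gave MCM2-7 medians of -0.116 to 0.0693 and GINS medians of -0.50 to -0.18. Rescaling to TPM divides each library by its summed FPKM, which was 1189056 and 1192830 with A7 and 1324082 and 1473540 with vehicle. The cause of the differing sums, and of the moves with 1 library left out, was not tested. Over all genes 1 was higher and 1 lower at an adjusted p under 0.05, with 198 higher and 318 lower at an unadjusted p under 0.05 by limma. There were 0 higher with no filter on low values, without the trend and with the replicate block, and 0 lower with a pseudocount of 0.1 or 0.01, with no filter and with the block. With a minimum mean of 5 FPKM 3 were lower, and with TPM or quantile normalization 2 were lower. Leaving out 1 library gave 0 to 9 higher and 0 to 7 lower. The fold between the highest and the lowest subunit was 110 to 133 for MCM2-7 and 38.9 to 44.9 for GINS when 1 library was left out. Same-numbered libraries deviated together only weakly (correlation of 0.0906 across genes), which does not settle whether they were paired. Fitting the replicate block gave 288 genes higher and 574 lower at an unadjusted p under 0.05 by limma, against 198 and 318 without it. With the replicate block GINS2 had the same log2 difference of -0.55 (limma unadjusted p = 0.0020). MCM7 and GINS1 also fell under 0.05 with the block (limma unadjusted p = 0.0163 and 0.0373), at unchanged log2 differences of -0.32 and -0.34. With TPM, MCM4 and GINS2 did (limma unadjusted p = 0.0438 and 0.0488), where 716 genes were higher and 96 lower at an unadjusted p under 0.05. A minimum mean of 5 FPKM removes MCM2, MCM5 and GINS3. The low depth limits MCM2, MCM5 and GINS3, each resting on an estimated 161 fragments or fewer over the 4 libraries.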
